A study of Arabidopsis thaliana with 16 samples.

Results

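Cysteine-rich receptor-like kinases (CRKs) are plasma membrane proteins with an extracellular part built of DUF26 domains, which carry conserved cysteines, a membrane-spanning segment and an intracellular protein kinase. Members have been tied to perception of reactive oxygen species, pathogen defence, cell death and abscisic acid signalling, and many of their transcripts respond to salicylic acid and to pathogens. WRKY transcription factors, which act in the same defence responses, bind the W-box, whose core is TTGAC. The 41 loci of the family were taken by identifier from the 32833 genes of the seedling table and the 32548 genes of the leaf and shoot apex table, without use of any measured value, and all 41 were listed in both.

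RNA sequencing covered 16 libraries of Arabidopsis thaliana, 2 for each of 8 groups. In 1 table, 2-week-old seedlings were tcx5-/- tcx6-/- ddm1-/- (tcx5/6 ddm1), ddm1-/- (ddm1), tcx5-/- tcx6-/- (tcx5/6) or wild type (WT). In the other, tcx5/6 and WT plants gave shoot apical meristem (SAM) and 1-month leaf libraries, with tissue taken from the sample titles because the tissue field names seedlings throughout. Plants grew on MS plates at 22 °C with 16 h of light and 8 h of dark, and no treatment was given. The labels name neither the alleles, nor how many plants went into a library, nor the age of the SAM samples. TCX5 and TCX6 bind DNA through CXC domains as subunits of DREAM, a complex that represses the cell cycle, and DDM1 remodels nucleosomes and is needed to keep DNA methylated. Whether the replicates of a group were grown apart is not stated, and p-values therefore cover only the spread between libraries, which may be technical. Genes above 0 numbered 24047 in each WT and 23951 in each tcx5/6 seedling library. They numbered 22128 in each WT and 22023 in each tcx5/6 leaf library, and differed between replicates in the other groups. Whether replicate values were adjusted together is not stated, so values of a group may not be independent.

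Values are deposited signal, adjusted by the authors towards equal library sizes and not divided by gene length. Changes are log2 differences of signal + 1 with their standard error (SE) from limma-trend, with 2 libraries per group, and a gene was called at a Benjamini-Hochberg adjusted p under 0.05 over all 25016 genes tested in seedlings or 24429 in leaf and SAM. Total signal, in units of 1000000, was 31.13 to 38.82 per seedling library and 45.35 to 59.33 per leaf or SAM library. DDM1 signal was 569 and 654 in tcx5/6 ddm1, 119 and 145 in ddm1, 1925 and 2061 in tcx5/6 and 709 and 648 in WT seedlings. It was below WT in ddm1. In tcx5/6 ddm1 it was near the WT level, so WT does not check that label, but it was below tcx5/6 (log2 change -1.71, called). In tcx5/6 seedlings TCX5 was 240.2 and 267, against 486 and 497 in WT, while TCX6 was 783 and 759.7, against 163 and 152 in WT, so signal over the gene does not check the TCX6 label and groups are named as labelled. The seedling libraries were of 2 kinds by the spacing of their lowest values, which fell on even steps in 72.0% to 80.5% of cases in tcx5/6 ddm1 and ddm1 libraries and in 27.1% to 31.4% in tcx5/6 and WT libraries. CCA1, a clock gene that peaks at dawn, was 477 and 249 in tcx5/6 ddm1 and 802 and 1016 in ddm1, against 5215 and 5519 in tcx5/6 and 6975 and 7577 in WT. Loss of DDM1, the kind of library and the clock state therefore cannot be told apart in any seedling comparison across these pairs of groups.

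The family has 20 members, CRK5 to CRK24, in 1 tandem array on chromosome 4 (TAIR10.1, 12117491 to 12191704, a span of 74214 bp), and 21 members elsewhere, called dispersed here. The annotation places 2 other loci inside the array, neither of which passed the filter on low values in seedlings. Of the dispersed members, 13 lie within 20 kb of another CRK and 8 stand alone. CRK10 and CRK11 overlap on opposite strands, and CRK16 with CRK17 and CRK28 with CRK29 overlap on the same strand, so reads could be shared or split between the genes of a pair. No source used here states the strand setting of the counting. Encoded proteins of 40 members could be translated without interruption, and pairs within the array were 52.0% identical at the median over 190 pairs. Dispersed pairs had a median of 43.0% over 190 pairs, and the most alike pair was CRK19 with CRK20 at 84.9%. How reads matching several members were assigned is not stated, so values of such pairs are uncertain.

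Promoter sequences are shown for 5 array members that went different ways in ddm1 seedlings, since they differ in W-box core content. Each runs 5′ to 3′ for 300 bases, 250 before and 50 after the annotated gene start, in RefSeq's TAIR10.1, with TTGAC or its reverse complement GTCAA in capitals. The windows are chr4:12120171-12120470 for CRK5, chr4:12143809-12144108 for CRK11, chr4:12147992-12148291 for CRK12 and chr4:12180887-12181186 for CRK21, all on the minus strand, and chr4:12181375-12181674 for CRK22 on the plus strand.
CRK5: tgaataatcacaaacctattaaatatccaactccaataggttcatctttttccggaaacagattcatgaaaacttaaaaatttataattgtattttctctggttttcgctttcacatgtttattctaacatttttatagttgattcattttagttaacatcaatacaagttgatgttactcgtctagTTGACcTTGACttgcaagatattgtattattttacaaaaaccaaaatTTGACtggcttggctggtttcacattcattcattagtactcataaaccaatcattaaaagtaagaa
CRK11: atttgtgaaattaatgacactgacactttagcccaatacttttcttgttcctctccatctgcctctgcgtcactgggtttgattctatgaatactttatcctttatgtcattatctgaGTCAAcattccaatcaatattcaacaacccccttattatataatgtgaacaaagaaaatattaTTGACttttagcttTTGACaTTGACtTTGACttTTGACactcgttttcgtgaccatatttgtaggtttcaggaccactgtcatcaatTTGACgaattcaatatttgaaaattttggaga
CRK12: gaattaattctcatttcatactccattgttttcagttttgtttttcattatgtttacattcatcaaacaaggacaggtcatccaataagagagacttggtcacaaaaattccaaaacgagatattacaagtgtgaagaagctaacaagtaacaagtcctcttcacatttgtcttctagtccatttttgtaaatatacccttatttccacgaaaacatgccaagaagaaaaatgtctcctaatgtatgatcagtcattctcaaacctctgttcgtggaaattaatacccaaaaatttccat
CRK21: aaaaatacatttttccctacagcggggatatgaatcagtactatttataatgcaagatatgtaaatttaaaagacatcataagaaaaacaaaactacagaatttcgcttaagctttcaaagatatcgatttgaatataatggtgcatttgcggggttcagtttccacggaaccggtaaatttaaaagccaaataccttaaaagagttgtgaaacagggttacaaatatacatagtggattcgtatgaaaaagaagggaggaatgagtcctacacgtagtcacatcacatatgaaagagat
CRK22: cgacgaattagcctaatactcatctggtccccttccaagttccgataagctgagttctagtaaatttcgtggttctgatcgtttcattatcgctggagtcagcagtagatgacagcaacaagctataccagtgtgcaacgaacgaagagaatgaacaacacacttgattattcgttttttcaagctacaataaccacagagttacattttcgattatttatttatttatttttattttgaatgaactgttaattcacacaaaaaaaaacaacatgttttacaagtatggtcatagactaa

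The CRK11 promoter held 7 matches and that of CRK5 held 3, while CRK12, CRK21 and CRK22 had none. In both CRK5 and CRK11 the signal was higher in ddm1 than in WT seedlings, as it was in CRK12, whereas CRK21 was lower and CRK22 was not called. At least 1 match lay in the promoters of 80.0% of the array members, 71.4% of the dispersed members and 50.5% of all 27443 protein-coding genes. At least 2 matches lay in 55.0% of the array promoters, 28.6% of the dispersed ones and 17.7% of all. Among the 29 members called higher in ddm1 seedlings 75.9% had a match, and among the other 12 members 75.0% had one. The core TGACG is bound by TGA factors that relay salicylic acid signals. It lay in 13 of the 29 (44.8%) and 2 of the 12 (16.7%), against 23.1% of all promoters. TTTGAA or TTCGAA, the cell cycle element bound through DREAM in animals, lay in 51.7% of the 29 and 75.0% of the 12, against 48.7% of all promoters. Both strands were searched, TTGAC and TGACG can overlap, and a match in these windows is a description of sequence only.

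Family signal was highest in leaf. Summed over the 41 loci, not divided by length, and per 1000000 of total signal, it was 2776 and 2939 in tcx5/6 leaf and 2016 and 1997 in WT leaf. It was 463.2 and 461.3 in tcx5/6 SAM and 321.0 and 321.1 in WT SAM. In seedlings it was 905.0 and 1081 in tcx5/6 ddm1, 734.6 and 841.7 in ddm1, 442.7 and 449.2 in tcx5/6 and 411.3 and 414.6 in WT. Per 1000000 of total signal, the libraries of the 4 seedling groups did not overlap in this sum, nor did those of tcx5/6 and WT in leaf or SAM. Without division by total signal, the sum was 28842 and 34168 in tcx5/6 ddm1 and 28082 and 32673 in ddm1 seedlings, which overlapped. Undivided sums of 13779 and 14274 in tcx5/6 and 13702 and 14109 in WT seedlings overlapped too.

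**Figure D1:**
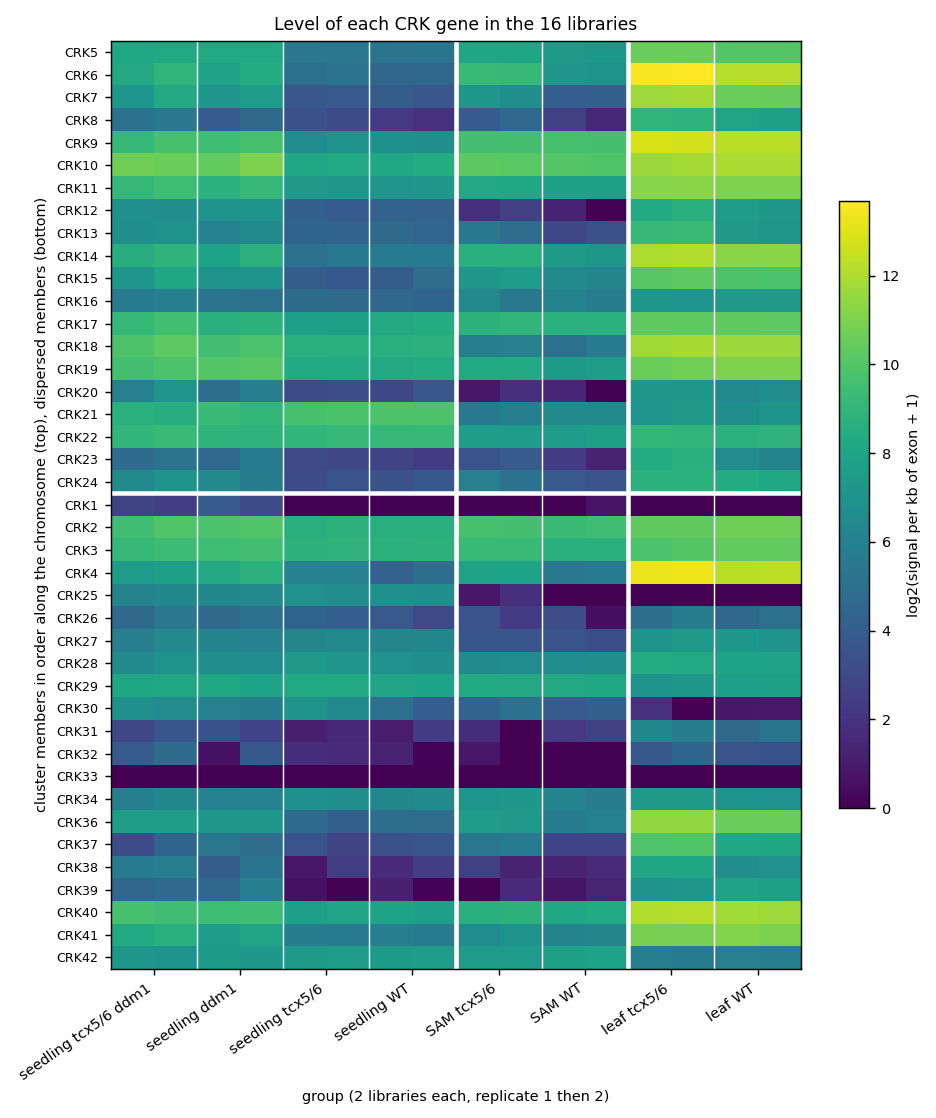
Heat map of log2(signal per kb of exon + 1) for the 41 CRK genes (rows; array members, named cluster on the axis, above the white line and dispersed members below) in 16 libraries (columns; 2 per group). Leaf columns are the brightest for most rows, CRK33 is at 0 throughout, and CRK21 and CRK22 stand out among array members in tcx5/6 and WT seedlings.

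Levels of the members were compared with each other as signal per kb of exon, and their order depended on the group. In WT seedlings CRK21 led with 941 ± 0.73 signal per kb (SD, n = 2), followed by CRK22 with 562 ± 22.7 and CRK3 with 445 ± 7.29. These 3 did not overlap one another in WT seedlings, whereas CRK18, next at 416 ± 25.7, was below CRK3 by less than the sum of their SDs. In ddm1 seedlings CRK10 led with 1677 ± 443 signal per kb and CRK19 followed with 1075 ± 66.7. In WT leaf CRK4 with 5013 ± 49.2 and CRK9 with 4941 ± 77.1 signal per kb differed by no more than their spread. CRK6 followed with 4565 ± 78.2. The predicted protein of CRK9 has only 265 residues, against 680 for CRK6, and whether it holds a kinase was not examined. In tcx5/6 leaf CRK6 led with 12608 ± 677 signal per kb, ahead of CRK4 with 10102 ± 186. In SAM of both genotypes CRK10 led, with 1176 ± 16.6 signal per kb in tcx5/6 and 1011 ± 26.8 in WT. CRK33 was listed at 0 in all 16 libraries. CRK1, also named RKF2, was listed at 0 in tcx5/6 and WT seedlings and in leaf, and was at 1.68 in 1 WT SAM library.

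Most of the family was higher in ddm1 than in WT seedlings, in the array and elsewhere. The ddm1 and WT libraries also differed in kind and in clock state, as given above. Of 40 members tested, 29 rose, 1 fell and 10 were not called, where 49.6% of all genes tested were called (26.3% higher and 23.3% lower). In the array 17 of 20 rose and 1 fell, with a median log2 change of 2.43, and of the dispersed members 12 of 20 rose, with a median of 1.56. The median over all genes tested was 0.00. The array and dispersed members were compared by these counts only, and the gap between their medians is not tested here. With clustered members taken as those that have another CRK within 20 kb, 24 of 32 rose with a median of 1.77. Of the 8 single members 5 rose, with a median of 1.60. CRK1, a dispersed and single member whose call follows from the filter, is among the 29, the 12 and the 5 and enters these medians.

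The largest rises were in genes of very low or absent signal in WT. CRK39 (AT4G04540, chromosome 4, 2259498 to 2262320) had 59.6 and 148 signal in ddm1, against 3.41 and 0.2 in WT seedlings (5.37 ± 0.74, adjusted p = 0.00046). CRK1 (AT1G19090) had 35.8 and 19.7 in ddm1 and was listed at 0 in both WT libraries, so it is given without a fold. It passed the filter only through the groups with ddm1, so its call follows from the filter. Both genes were above every WT library in both ddm1 libraries, although for CRK39 the log2 change was 6.31 and 4.43 without WT replicate 1 and 2, and 6.02 and 4.72 without ddm1 replicate 1 and 2. CRK4 (AT3G45860, chromosome 3, 16863088 to 16866261), whose overexpression is known to cause cell death, had 775 and 1112 in ddm1, against 48.6 and 75.9 in WT seedlings (3.91 ± 0.24, adjusted p = 6.1e-06). In the array, CRK6 (AT4G23140), tied to protection from extracellular oxidants, had 606 and 919 in ddm1, against 57.4 and 59.3 in WT (3.65 ± 0.27, adjusted p = 1.4e-05). Its neighbour CRK7 (AT4G23150) had 306 and 423 in ddm1, against 34.9 and 27.4 in WT (3.50 ± 0.36, adjusted p = 8.4e-05). For CRK4, CRK6 and CRK7 the lower ddm1 library was well above the higher WT library.

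CRK5 (AT4G23130), which also causes cell death when overexpressed, was the array member with the smallest p. It had 748 and 736 in ddm1, against 86.8 and 91.9 in WT seedlings (3.04 ± 0.13, adjusted p = 9.3e-07). CRK11 (AT4G23190), with the W-box-rich promoter printed above, had 1086 and 1416 in ddm1, against 369 and 396 in WT (1.69 ± 0.15, adjusted p = 4.0e-05). CRK12 (AT4G23200), with no match in its promoter, had 326 and 339 in ddm1, against 49.1 and 47.1 in WT (2.76 ± 0.20, adjusted p = 1.4e-05). None of these genes overlapped between the groups. CRK13, which raises resistance to bacteria through salicylic acid when overexpressed, had a log2 change of 1.72. CRK36, a partner in abscisic acid and immune signalling, had 2.40, and CRK2, a kinase of the NADPH oxidase RBOHD, had 1.34, both called.

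**Figure D2:**
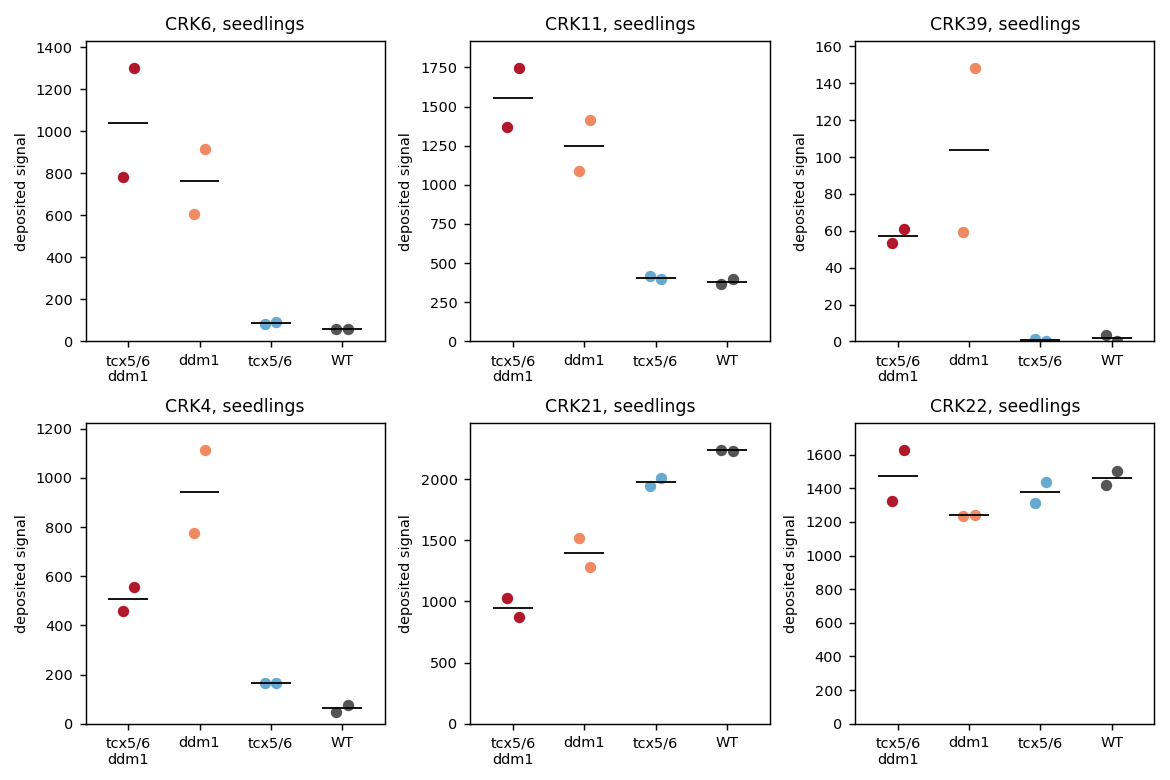
Deposited signal of 6 CRK genes in seedlings (vertical axes, linear from 0) by genotype, with 1 point per library and a line at the mean of 2. CRK6, CRK11, CRK39 and CRK4 are higher in tcx5/6 ddm1 and ddm1 than in tcx5/6 and WT, CRK21 is lower, and CRK22 overlaps between tcx5/6 ddm1 and WT.

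A pair of neighbouring array genes stood outside this pattern, and they were the 2 members with most signal per kb in WT seedlings. CRK21 (AT4G23290, chromosome 4, 12177734 to 12180936) was the single member that fell in ddm1, with 1517 and 1279 against 2235 and 2233 in WT (-0.68 ± 0.10, adjusted p = 0.00077). CRK22 (AT4G23300) had 1233 and 1244 in ddm1, against 1421 and 1504 in WT (-0.24 ± 0.10, adjusted p = 0.087), which was not called. Both ddm1 libraries were nonetheless below both WT libraries for CRK22. Of the other 9 members tested and not called, CRK16 lies in the array, with a log2 change of 0.69. The dispersed ones were CRK25, CRK27, CRK28, CRK29, CRK31, CRK32, CRK34 and CRK42, at -0.41 to 1.80. The overlapping genes CRK28, which associates with the flagellin receptor complex, and CRK29 had log2 changes of -0.15 and 0.12. Leaving out ddm1 replicate 2 left 23 members higher and 1 lower, and CRK38, called at 2.78, then had 2.12 (adjusted p = 0.1) and, without ddm1 replicate 1, 3.45. Calls of CRK17, CRK20, CRK26, CRK30 and CRK37 were also lost when 1 library was left out. Without ddm1 replicate 1, a library with seed storage transcripts (854 and 5.09 for CRC in the ddm1 libraries), 27 rose and 1 fell.

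Genes flanking the array were compared in the same way. Of 9 flanking genes that were tested, 3 rose and 1 fell in ddm1 seedlings, with a median log2 change of 0.18. Over all genes tested 49.6% were called (26.3% higher and 23.3% lower), and the flanking counts were not tested against that share. One of the 9, AT4G23110, was listed at 0 in all ddm1, tcx5/6 and WT seedling libraries and passed the filter only through tcx5/6 ddm1, so its value in ddm1 says nothing. GSH1, the first enzyme of glutathione synthesis and the nearest gene before CRK5 with signal in ddm1 or WT, rose (0.76 ± 0.07, adjusted p = 4.2e-05). After CRK24 the next gene, AT4G23330, was not called (0.07 ± 0.10, adjusted p = 0.61). Inside the array CRK16, CRK17 and CRK18, which are neighbours, had 0.69, 0.45 and 1.01. Apart from these and the neighbours CRK21 and CRK22, all array members had 1.69 or more.

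**Figure D3:**
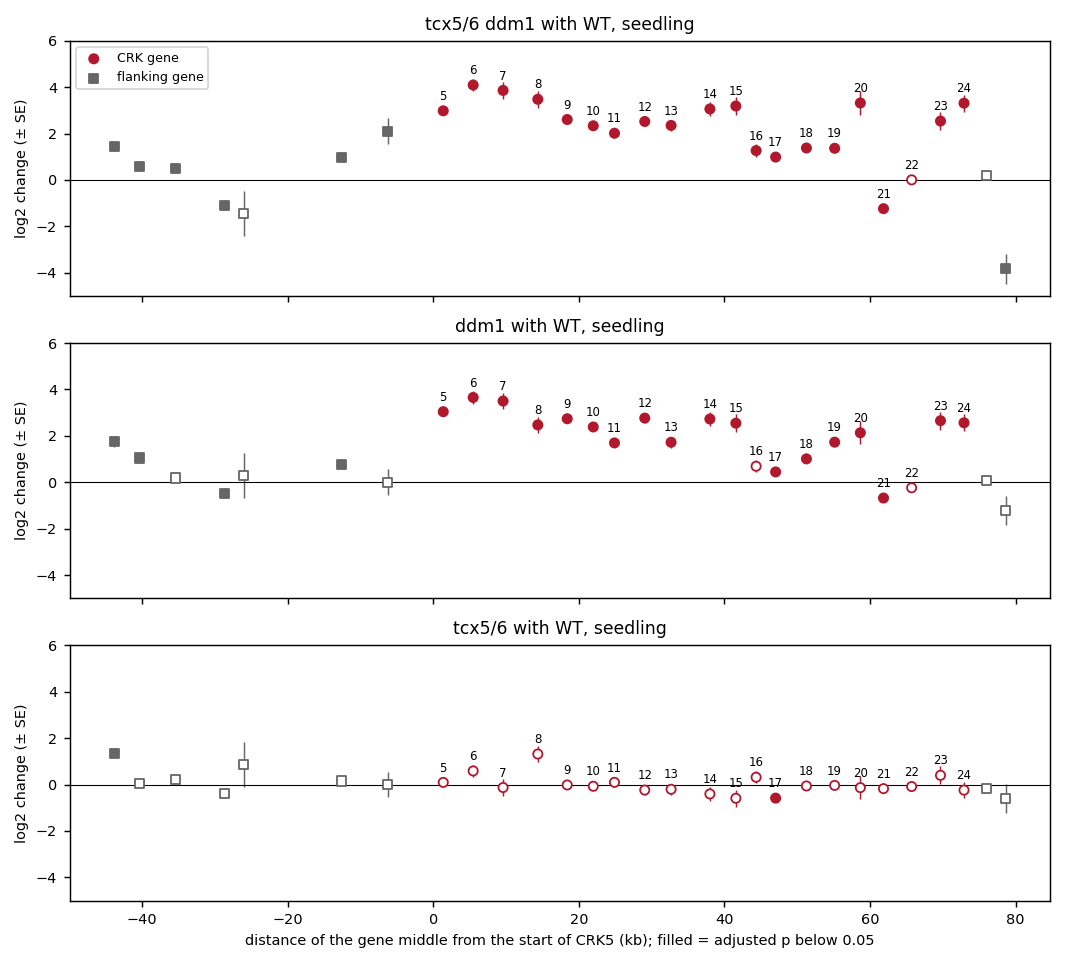
Log2 change (± SE, n = 2 per group) of the 20 array members (red circles, numbered) and of tested flanking genes (grey squares) against distance from the start of CRK5 in kb, in 3 seedling comparisons with WT. Red points lie above 0 in tcx5/6 ddm1 and in ddm1 except at CRK21 and CRK22, and within 1 of 0 in tcx5/6 apart from CRK8 at 1.32, with CRK17 the only CRK gene called there.

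Other defence genes moved in the same libraries. Of 23 salicylic acid genes 19 rose and none fell in ddm1 seedlings, with a median log2 change of 1.80. They include PR1, a secreted defence protein (6.47 ± 0.27, adjusted p = 9.3e-07), and SAG101, a lipase-like partner of EDS1 (2.28 ± 0.10, adjusted p = 1.1e-06). Of 20 defence WRKY factors 17 rose and none fell (median 2.95), and the smallest p were those of WRKY18 (4.56 ± 0.12, adjusted p = 1.3e-07), WRKY45 (2.26 ± 0.10, adjusted p = 1.3e-06) and WRKY54 (4.27 ± 0.21, adjusted p = 2.0e-06). Of 22 genes of pattern-recognition signalling 18 rose and 2 fell (median 1.22), among them PBL1 (1.83), CPK28 (2.63) and the flagellin receptor FLS2 (1.27). Of 8 plasmodesmata-located proteins, which carry DUF26 domains without a kinase, 1 rose and 1 fell (median 0.10). In the RPP5 cluster, a group of neighbouring resistance genes on chromosome 4, 5 of 8 rose and 2 fell (median 0.46). Genes of other marker lists were also called in ddm1, where 49.6% of all genes tested were called. Of the clock genes 5 of 5 were called, and 3 of 5 senescence, 2 of 4 seed storage and 3 of 5 floral genes rose. Of 5 photosynthesis genes 3 fell and 1 rose, of 7 root genes 3 rose and 3 fell, and 2 of 4 tested meristem genes fell. These counts were not tested against the share over all genes. Summed photosynthesis signal was 1810300 and 1777400 in ddm1 and 1476400 and 1536100 in WT seedlings, and summed root signal 32404 and 29593 in ddm1 and 44613 and 40634 in WT. Single genes dominate both sums. CAB1, the photosynthesis gene that rose, was 1167600 and 1102200 in ddm1 and 469530 and 492160 in WT. PYK10 was 30086 and 27190 in ddm1 and 41908 and 38184 in WT, nearly all of the root sum. The part of these differences in the CRK values was not tested, and in bulk tissue fewer cells of a type cannot be told apart from less RNA per cell.

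In tcx5/6 ddm1 seedlings most members were again higher than in WT, as were defence genes of other families. Against WT, 31 of 40 members rose and 3 fell, where 55.8% of all genes tested were called (29.5% higher and 26.4% lower). In the array 18 of 20 rose and 1 fell (median 2.53), and of the dispersed members 13 of 20 rose and 2 fell (median 1.72). The 13 include CRK1, listed at 0 in both WT libraries. It passed the filter only through the groups with ddm1, so its call follows from the filter. This comparison shares its WT libraries with that of ddm1. CRK39 had 53.5 and 60.9 in tcx5/6 ddm1, against 3.41 and 0.2 in WT (4.66 ± 0.74, adjusted p = 0.00082). CRK32 had 31.4 and 61.7, against 3.41 and 0.2 in WT (4.29 ± 1.13, adjusted p = 0.012). CRK6 had 784 and 1302, against 57.4 and 59.3 in WT (4.09 ± 0.27, adjusted p = 5.7e-06). For each of these the tcx5/6 ddm1 libraries lay above the WT libraries, but the WT signal of CRK32 and CRK39 was near 0 and differed between replicates. Without WT replicate 2 CRK32 was no longer called (3.35, adjusted p = 0.11), and CRK39 had 3.72 (adjusted p = 0.011). Without WT replicate 1 the values were 5.23 for CRK32 and 5.60 for CRK39. CRK38 had 116 and 128 in tcx5/6 ddm1, against 4.87 and 10.3 in WT (3.92 ± 0.73, adjusted p = 0.0019).

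CRK5 in the array had 689 and 734 in tcx5/6 ddm1, against 86.8 and 91.9 in WT (2.98 ± 0.13, adjusted p = 8.7e-07). Among dispersed members CRK40 had the smallest p, with 2522 and 2219 in tcx5/6 ddm1, against 758 and 656 in WT (1.74 ± 0.11, adjusted p = 5.1e-06). Neither overlapped between groups. CRK21 fell, with 1025 and 874 in tcx5/6 ddm1, against 2235 and 2233 in WT (-1.24 ± 0.10, adjusted p = 2.0e-05). CRK25 had 149 and 177, against 247 and 224 in WT (-0.53 ± 0.16, adjusted p = 0.022), and CRK42 had 435 and 369, against 500.2 and 525 in WT (-0.35 ± 0.13, adjusted p = 0.043). All 3 were lower in both tcx5/6 ddm1 libraries than in both WT libraries. The calls of CRK25, CRK42, CRK26, CRK31 and CRK32 were each lost when 1 library was left out. CRK22 was not called (0.00 ± 0.10, adjusted p = 0.98). Of 9 flanking genes tested, 5 rose and 2 fell, with a median log2 change of 0.49, where 55.8% of all genes tested were called. AT4G23110 is among the 5, and its call follows from the filter. Of 23 salicylic acid genes 18 rose (median 1.71), of 20 defence WRKY factors 18 rose (median 2.75), and of 22 pattern-recognition genes 19 rose and 1 fell (median 0.94). Of 8 RPP5 cluster genes 1 rose and 1 fell (median -0.09), and of 8 plasmodesmata-located proteins 2 rose and 2 fell (median -0.34). Genes of other marker lists were called too, and their counts were not tested against the 55.8% of all genes called. Of the clock genes 5 of 5 were called, and 3 of 5 senescence genes and 2 of 5 floral genes rose. Photosynthesis genes fell in 4 of 5 cases, root genes in 3 of 7 and tested meristem genes in 2 of 4. Summed signal of the photosynthesis genes was 867910 and 722780 in tcx5/6 ddm1 and 1476400 and 1536100 in WT, and that of the root genes 19012 and 25814 in tcx5/6 ddm1 and 44613 and 40634 in WT. Most of the root sum was again PYK10, at 17584 and 24200 in tcx5/6 ddm1. The part of these markers in the CRK values was not tested.

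Few members differed between tcx5/6 ddm1 and ddm1 seedlings, whose libraries are of the same kind. Here 2 of 40 members rose and 3 fell, where 39.3% of all genes tested were called (17.7% higher and 21.6% lower), and the median log2 change was 0.12. CRK41 had 766 and 945 in tcx5/6 ddm1, against 459.7 and 610.3 in ddm1 (0.68 ± 0.18, adjusted p = 0.019). CRK17, a gene with a long predicted protein of 1001 residues, had 1727 and 2271, against 1287 and 1441 in ddm1 (0.54 ± 0.13, adjusted p = 0.013). CRK4 had 456 and 557 in tcx5/6 ddm1, against 775 and 1112 in ddm1 (-0.88 ± 0.24, adjusted p = 0.022). In all 3 the groups did not overlap. CRK21 had 1025 and 874, against 1517 and 1279 in ddm1 (-0.56 ± 0.10, adjusted p = 0.0035). CRK19, most alike to CRK20, had 2023 and 2363, against 2693 and 2939.7 in ddm1 (-0.36 ± 0.10, adjusted p = 0.017). These 2 were lower in both tcx5/6 ddm1 libraries. Of these 5 calls, only that of CRK21 was kept when each library was left out in turn. Without ddm1 replicate 1, or without tcx5/6 ddm1 replicate 2, no member rose, and 3 or 5 members fell; CRK41 then had 0.48 (adjusted p = 0.11) or 0.53 (adjusted p = 0.12). CRK4 had -0.62 (adjusted p = 0.15) and CRK19 -0.30 (adjusted p = 0.11) without ddm1 replicate 2, when 5 members rose and 1 fell, and a fit on the 2 groups alone called no member. Other tissue markers differed too, with 3 of 4 seed storage genes, 4 of 5 photosynthesis genes and 5 of 7 root genes lower in tcx5/6 ddm1. Summed photosynthesis signal was 867910 and 722780 in tcx5/6 ddm1 and 1810300 and 1777400 in ddm1, and the part of these differences in the CRK values was not tested.

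Against tcx5/6 seedlings, most members were also higher in tcx5/6 ddm1, a comparison that shares its tcx5/6 ddm1 libraries with that against WT. Of 40 members 28 rose and 4 fell, where 51.7% of all genes tested were called (25.7% higher and 26% lower). In the array 18 of 20 rose and 1 fell (median 2.48), and of the dispersed members 10 of 20 rose and 3 fell (median 0.94). CRK39 had 53.5 and 60.9 in tcx5/6 ddm1, against 1.31 and 0.068 in tcx5/6 (5.21 ± 0.74, adjusted p = 0.00053). CRK38 had 116 and 128, against 1.94 and 11.1 in tcx5/6 (4.36 ± 0.73, adjusted p = 0.0012), and without tcx5/6 replicate 1 or 2 its change was 3.34 or 5.39. CRK7 had 317 and 673, against 27.5 and 28.9 in tcx5/6 (3.99 ± 0.36, adjusted p = 4.0e-05). These 3 did not overlap between groups. CRK1 had 14.9 and 11.7 and was listed at 0 in both tcx5/6 libraries, so its call follows from the filter. It is among the 28 and the 10 that rose. CRK36 had 445 and 458, against 59.2 and 41.1 in tcx5/6 (3.17 ± 0.21, adjusted p = 8.0e-06). CRK5 had 689 and 734, against 97.0 and 93.3 in tcx5/6 (2.89 ± 0.13, adjusted p = 1.3e-06). Both genes were several times higher in each tcx5/6 ddm1 library. On the falling side, CRK21 had 1025 and 874, against 1947 and 2006 in tcx5/6 (-1.06 ± 0.10, adjusted p = 6.3e-05). CRK34 had 146 and 191, against 289.8 and 273 (-0.75 ± 0.18, adjusted p = 0.0081), and CRK25 had 149 and 177, against 261 and 237 (-0.61 ± 0.16, adjusted p = 0.013). CRK28 had 285 and 373, against 494 and 419 in tcx5/6 (-0.48 ± 0.16, adjusted p = 0.032). All 4 were lower in both tcx5/6 ddm1 libraries, and the calls of CRK25, CRK28 and CRK34 were lost without tcx5/6 replicate 1, as were those of the higher members CRK3, CRK16 and CRK31. In this comparison 5 of 5 clock genes were called, 4 of 5 senescence genes and 3 of 5 floral genes rose, and 3 of 5 photosynthesis genes, 5 of 7 root genes and 3 of 4 tested meristem genes fell. Summed photosynthesis signal was 867910 and 722780 in tcx5/6 ddm1 and 1176200 and 1254900 in tcx5/6, and the part of these markers in the CRK values was not tested.

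In tcx5/6 seedlings themselves few members were called, as were few genes of any kind. Of 40 members 2 rose and 1 fell against WT, where 11.6% of all genes tested were called (7.26% higher and 4.35% lower), and the median log2 change was -0.03. No array member rose. CRK30 had 329 and 232 in tcx5/6, against 84.4 and 39.3 in WT seedlings (2.24 ± 0.34, adjusted p = 0.0047). CRK4 had 167 and 166 in tcx5/6, against 48.6 and 75.9 in WT (1.44 ± 0.24, adjusted p = 0.0076). CRK17 had 655 and 678 in tcx5/6, against 935 and 1069 in WT (-0.58 ± 0.13, adjusted p = 0.026). The groups did not overlap in any of the 3. All 3 calls were lost without tcx5/6 replicate 1, when CRK30 had 1.99 (adjusted p = 0.089), CRK4 1.44 (adjusted p = 0.096) and CRK17 -0.56 (adjusted p = 0.2), and 1 call remained without WT replicate 1 or without tcx5/6 replicate 2. Of the defence lists, 2 of 20 WRKY factors rose (WRKY18, 0.75, and WRKY48, 0.60), 1 of 23 salicylic acid genes rose (SAG101, 0.49) and 1 fell (PBS3, -1.04), and 2 of 22 pattern-recognition genes rose and 1 fell.

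For 2 members the tcx5/6 difference was not the same in seedlings with ddm1 and in those without. Kind of library and clock state also differ between these pairs of groups and cannot be told apart from ddm1 here. In this interaction, the log2 change of tcx5/6 ddm1 with ddm1 minus that of tcx5/6 with WT, 14.5% of all genes tested were called (5% higher and 9.51% lower). CRK4 had an interaction of -2.32 ± 0.35, adjusted p = 0.0049: it was lower in tcx5/6 ddm1 than in ddm1 but higher in tcx5/6 than in WT. CRK17 went the other way (1.12 ± 0.19, adjusted p = 0.0075), being higher in tcx5/6 ddm1 than in ddm1 and lower in tcx5/6 than in WT. The call of CRK17 was lost without WT replicate 2 (1.03, adjusted p = 0.062) or without either tcx5/6 replicate, and without tcx5/6 ddm1 replicate 1 there were 4 calls.

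In SAM, the tcx5/6 libraries had more CRK signal than WT for most members tested. Of 39 members tested, 23 rose, 1 fell and 15 were not called, where 30.1% of all genes tested were called (15.6% higher and 14.5% lower). In the array 14 of 20 rose and 1 fell, with a median log2 change of 0.90, and of the dispersed members 9 of 19 rose, with a median of 0.59. The median over all genes was 0.00. CRK7 had 334 and 249 in tcx5/6 SAM, against 35.8 and 38.7 in WT SAM (2.92 ± 0.14, adjusted p = 2.2e-05). CRK37 had 90.5 and 102 in tcx5/6, against 12.5 and 12.8 in WT (2.83 ± 0.14, adjusted p = 2.2e-05). CRK8, next to CRK7 and with a predicted protein of 1043 residues, had 60.0 and 100.2 in tcx5/6, against 20.1 and 7.47 in WT (2.56 ± 0.42, adjusted p = 0.004). All 3 were higher in both tcx5/6 libraries, and the value of CRK8 ran between 1.90 and 3.21 with WT replicate 2 or 1 left out.

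CRK4 had 597 and 628 in tcx5/6 SAM, against 112 and 122 in WT SAM (2.38 ± 0.06, adjusted p = 2.0e-06). CRK6 had 1546 and 1506 in tcx5/6, against 356 and 335 in WT (2.14 ± 0.05, adjusted p = 2.0e-06). These had the smallest p of the dispersed and of the array members. CRK21 fell here too, with 108 and 142 in tcx5/6 SAM, against 217 and 221 in WT SAM (-0.82 ± 0.17, adjusted p = 0.012). Its call was lost without either WT library or without tcx5/6 replicate 1, when it had -0.62 (adjusted p = 0.057). CRK25 had 1.84 and 5.55 in tcx5/6 SAM and was listed at 0 in WT SAM and in leaf. It passed the filter only through tcx5/6 SAM and its call follows from that, yet it is among the 23 members and 9 dispersed members that rose. CRK12 had 6.52 and 12.9 in tcx5/6, against 3.69 and 0 in WT. These values are near the filter of 1, and both calls were lost when 1 library was left out, as were those of CRK10, CRK18, CRK23 and CRK41. CRK12, called at 2.24, had 3.35 without WT replicate 1 and 1.12 (adjusted p = 0.16) without WT replicate 2. Among the 39 members tested in both tables, 28 (71.8%) rose in ddm1 seedlings and 23 in tcx5/6 SAM, and 21 rose in both, which is 75.0% of the 28 and 91.3% of the 23. Over all 23277 genes tested in both, 6044 rose in ddm1 seedlings and 3788 in tcx5/6 SAM (16.3%), and the shared genes were 25.2% of those that rose in ddm1 and 40.3% of those that rose in SAM. These 2 comparisons have no library in common, and the overlap was not tested.

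The SAM libraries matched their label in part. STM, a meristem homeobox gene, was 1713 and 1602 in tcx5/6 and 1587 and 1510.1 in WT SAM and 0 in all leaf libraries. CLV3, which marks stem cells, was 1.86 and 3.68 in tcx5/6 SAM and listed at 0 in WT SAM, and the floral gene AP1 was 3439 and 3360.0 in tcx5/6 and 3637 and 3508 in WT SAM, so floral tissue was present. Between tcx5/6 and WT SAM, 5 of 5 photosynthesis genes fell, with summed signal of 636500 and 651040 in tcx5/6 and 973430 and 989680 in WT, and 2 of 5 floral genes fell. Of 5 meristem genes 1 rose and 1 fell, with summed signal of 6784 and 6249 in tcx5/6 and 6374 and 6422 in WT. The gene that rose was CLV3, which passed the filter only through tcx5/6 SAM, so its call follows from the filter. WUS fell, with 49.1 and 46.5 in tcx5/6, against 141 and 164 in WT SAM. The part of these markers in the CRK values was not tested. Defence lists rose in the same libraries: 14 of 23 salicylic acid genes rose and 1 fell (median 0.64), with the smallest p for PR5 (1.68), PR2 (2.40) and the salicylic acid synthesis enzyme ICS1 (1.51). Of 20 defence WRKY factors 14 rose and 1 fell (median 0.79), and of 22 pattern-recognition genes 12 rose and 1 fell (median 0.22).

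In leaf, the tcx5/6 difference was split. Of 39 members 13 rose, 5 fell and 21 were not called, where 42.6% of all genes tested were called (21.3% higher and 21.4% lower). In the array 8 of 20 rose and 2 fell (median 0.45), and of the dispersed members 5 of 19 rose and 3 fell (median 0.39). CRK23 had 1046 and 1272 in tcx5/6 leaf, against 289 and 217 in WT leaf (2.20 ± 0.44, adjusted p = 0.0063). CRK13 had 1485 and 1694 in tcx5/6, against 416 and 399.9 in WT (1.96 ± 0.25, adjusted p = 0.00095). CRK37 had 2089 and 2240.1 in tcx5/6, against 645 and 609 in WT (1.79 ± 0.14, adjusted p = 9.9e-05). In these 3 the tcx5/6 libraries were all well above WT, though the call of CRK23 was lost without WT replicate 2 (1.99, adjusted p = 0.051). CRK6, the array member with most signal per kb in tcx5/6 leaf, had 31514 and 33999.8 in tcx5/6, against 11717 and 12004 in WT (1.47 ± 0.05, adjusted p = 5.1e-06). CRK4 had 25564 and 26238 in tcx5/6, against 12765 and 12944 in WT (1.01 ± 0.06, adjusted p = 2.5e-05).

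The members that fell in tcx5/6 leaf fell by less. CRK29 had 402 and 458 in tcx5/6 leaf, against 652 and 664 in WT leaf (-0.61 ± 0.09, adjusted p = 0.0015). CRK3 had 2605 and 3030.2 in tcx5/6, against 3826 and 3891 in WT (-0.46 ± 0.07, adjusted p = 0.0025), and its neighbour CRK2 had 3121 and 3127 in tcx5/6, against 3923 and 3947 in WT (-0.33 ± 0.05, adjusted p = 0.002). CRK19 had 4068 and 4513 in tcx5/6, against 5567 and 5527 in WT (-0.37 ± 0.07, adjusted p = 0.0051). None of these 4 overlapped between groups, and the fifth, CRK10 (-0.25), lost its call in 6 of the 8 fits that left out 1 library. Leaving out 1 leaf library also ended the calls of CRK11 and CRK28. CRK29 overlaps CRK28, which rose (0.46). In tcx5/6 leaf 15 of 23 salicylic acid genes rose and 2 fell (median 0.78), with the smallest p for PR5 (3.51), PR2 (2.26) and ICS1 (1.47). Of 20 defence WRKY factors 15 rose and none fell (median 0.54), of 22 pattern-recognition genes 10 rose and 4 fell (median 0.10), and of 8 RPP5 cluster genes 1 rose and 6 fell (median -0.53). Of 5 senescence genes 2 rose and none fell in tcx5/6 leaf, with log2 changes from -0.60 to 1.28. SAG13 was 57322 and 55933 in tcx5/6 and 23664 and 22910 in WT leaf. SAG12, a marker of leaf senescence, was 210.3 and 178 in tcx5/6 and 191 and 223 in WT leaf. Photosynthesis genes moved opposite to SAM, with 4 of 5 higher and summed signal of 426520 and 413900 in tcx5/6 and 303770 and 297800 in WT leaf, and their part in the CRK values was not tested.

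**Figure D4:**
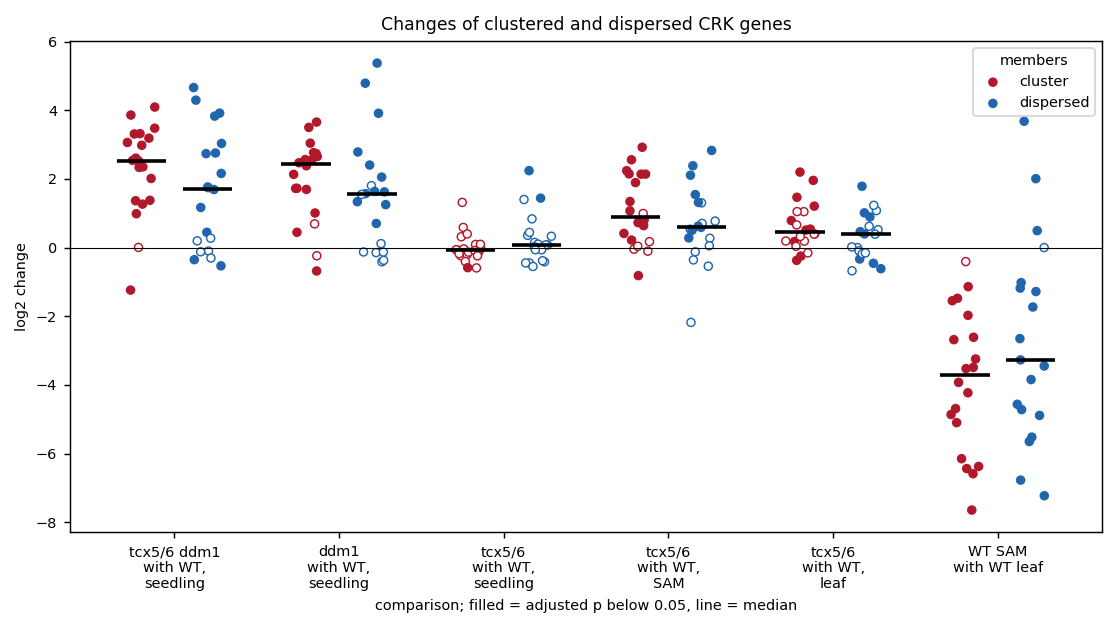
Log2 change of array (red, left, cluster in the legend) and dispersed (blue, right) CRK genes in 6 comparisons, 1 point per gene, filled where the adjusted p was below 0.05, with a line at the median. Array medians are 2.53, 2.43, -0.08, 0.90, 0.45 and -3.72 in the order drawn, and dispersed medians 1.72, 1.56, 0.08, 0.59, 0.39 and -3.27.

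The tcx5/6 difference was compared between SAM and leaf by the interaction of genotype with tissue. It was called higher in SAM for 16 of 39 members and lower for 3, where 30.7% of all genes tested were called (14.8% higher and 15.9% lower), and the median was 0.47. Among called members CRK7 had the largest value (1.71 ± 0.20, adjusted p = 0.0013), from a log2 change of 2.92 in SAM and 1.21 in leaf. CRK24 followed (1.50 ± 0.38, adjusted p = 0.023), with 123 and 71.2 in tcx5/6 SAM, against 27.0 and 22.3 in WT SAM, and 849 and 874 in tcx5/6 leaf, against 717 and 600.4 in WT leaf. CRK4 had the smallest p of the dispersed members (1.37 ± 0.08, adjusted p = 9.3e-05) and CRK19 that of the array (1.18 ± 0.10, adjusted p = 0.00038). CRK19 was higher in tcx5/6 in SAM (0.81) and lower in leaf (-0.37), as were CRK2, CRK3 and CRK10. CRK21 had a negative interaction (-1.14 ± 0.24, adjusted p = 0.013), and so did CRK28 (-0.58 ± 0.14, adjusted p = 0.022), with a log2 change of -0.12 in SAM, which was not called, and 0.46 in leaf, which was. In tcx5/6 leaf CRK28 had 1051 and 946, against 742 and 705 in WT leaf. The calls of CRK10, CRK11, CRK15, CRK21, CRK24, CRK28, CRK34, CRK36 and CRK41 were each lost when 1 library was left out, and 14 to 17 members were then called.

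Between tissues most members had more signal in leaf. In WT, 34 of 39 members were lower in SAM than in leaf and 3 were higher, where 78.8% of all genes tested were called (35.6% lower and 43.2% higher). The median log2 change was -3.49, against 0.21 over all genes, and 19 of 20 array members and 15 of 19 dispersed members were lower. CRK12 had 3.69 and 0 in WT SAM, against 481 and 387 in WT leaf (-7.64 ± 0.69, adjusted p = 3.0e-05). CRK39 had 1.73 and 4.12 in SAM, against 575 and 542 in leaf (-7.22 ± 0.81, adjusted p = 0.00011). CRK4 had 112 and 122 in SAM, against 12765 and 12944 in leaf (-6.77 ± 0.06, adjusted p = 9.8e-10). Each was lower in SAM by a wide margin, and the value of CRK12 was -6.53 or -8.76 with SAM WT replicate 2 or 1 left out. CRK6 had 356 and 335 in SAM, against 11717 and 12004 in leaf (-5.10 ± 0.05, adjusted p = 1.3e-09). Of the 3 members higher in SAM, CRK30 had 35.7 and 43.7 in SAM, against 2.14 and 2.19 in leaf (3.68 ± 0.86, adjusted p = 0.0057). CRK42 had 653 and 704 in SAM, against 176 and 161 in leaf (2.01 ± 0.14, adjusted p = 6.2e-06). CRK29, the third, had a log2 change of 0.49. Neither CRK30 nor CRK42 overlapped between tissues, but the call of CRK30 was lost without either SAM library, and those of CRK26 and CRK31, both lower in SAM, when 1 library was left out.

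The same contrast in tcx5/6 gave 33 of 39 members lower in SAM and 4 higher, where 78.2% of all genes tested were called (35.2% lower and 43.1% higher). All 20 array members were lower. CRK39 had 0 and 5.60 in tcx5/6 SAM, against 321 and 379 in tcx5/6 leaf (-7.09 ± 0.81, adjusted p = 0.00012). CRK12 had 6.52 and 12.9 in SAM, against 817 and 977 in leaf (-6.45 ± 0.69, adjusted p = 7.8e-05). CRK6 had 1546 and 1506 in SAM, against 31514 and 33999.8 in leaf (-4.42 ± 0.05, adjusted p = 1.8e-09). All 3 were far below leaf in both SAM libraries, and CRK39 moved to -5.73 or -8.45 without SAM tcx5/6 replicate 1 or 2. CRK30 had 48.7 and 86.5 in SAM, against 7.04 and 0.091 in leaf (4.47 ± 0.86, adjusted p = 0.0021), with 5.92 or 3.04 when leaf tcx5/6 replicate 1 or 2 was left out. CRK25, higher in SAM at 1.84 and 5.55, was listed at 0 in both tcx5/6 leaf libraries. It is among the 4 higher members, and its call follows from the filter. The defence lists were also leaf-biased in WT: 22 of 23 salicylic acid genes, 20 of 20 defence WRKY factors and 20 of 22 pattern-recognition genes were lower in SAM than in leaf. All 5 senescence genes were lower in SAM, while all 5 photosynthesis genes were higher there. Total signal per library also differed between SAM and leaf, and the age of the SAM samples is not given, so tissue and age cannot be told apart.

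Members that were lowest in SAM relative to leaf tended to be those that rose most in ddm1 seedlings. Across the 39 members tested in both tables, which share no library in these contrasts, Spearman's rho was -0.75 and Pearson's r -0.70. Over the 20 array members alone rho was -0.54 and r -0.61, and over the 19 dispersed members rho was -0.86 and r -0.73. Over all 23277 genes tested in both, rho was -0.43 and r -0.38. CRK39, CRK4 and CRK7 had changes of -7.22, -6.77 and -6.43 between WT SAM and WT leaf and of 5.37, 3.91 and 3.50 in ddm1 seedlings. CRK42, CRK29 and CRK21, at 2.01, 0.49 and -0.41 between tissues, had -0.13, 0.12 and -0.68 in ddm1 seedlings. CRK30 was apart from this order, higher in SAM (3.68) and higher in ddm1 (1.25). Genes are not independent replicates, points within a comparison share its libraries, and members share sequence, so these are descriptions.

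**Figure D5:**
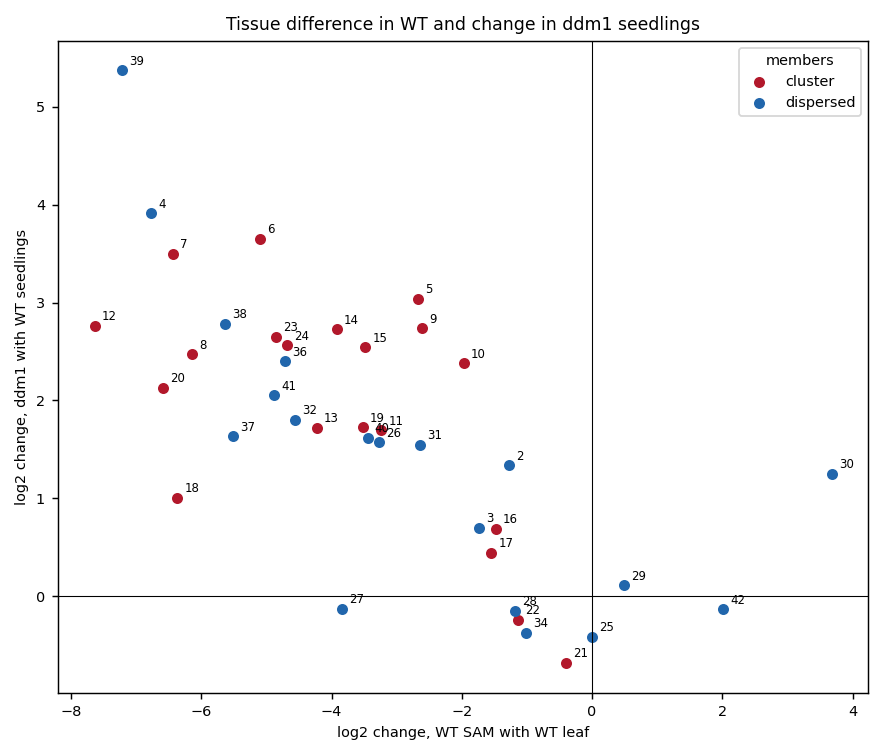
Log2 change in ddm1 with WT seedlings (vertical) against log2 change of WT SAM with WT leaf (horizontal) for 39 CRK genes, labelled by number, array members in red and dispersed in blue. Points run from upper left (CRK39 at -7.22 and 5.37) to lower right (CRK42 at 2.01 and -0.13), with CRK30 apart at 3.68 and 1.25.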

How the data were processed

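RNA-seq signal per gene was deposited in 2 tables of 8 libraries each. The authors used HISAT2, edgeR and the build TAIR10, per the submitters' processing notes; versions, the counter and the strand setting are not stated. The deposited signal resembles library-size adjusted read counts: steps of the lowest values are fractional and move between replicates, so depth is unknown, no counting interval was made and no count model was run. Values below 1e-06 were read as 0. Files carry no coordinates; positions and sequences are from RefSeq's TAIR10.1.

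Each table was fitted with limma 3.58.1 (trend) in R 4.3.3 on log2(signal + 1) for genes with at least 1 in at least 2 libraries, 1 coefficient per group. The same adjusted p threshold of 0.05 applied throughout. The fit was tested on simulated data. Replicates correlated at 0.9841 to 0.9967. Identities came from global alignment (BLOSUM62, gap 11 and 1). Figures were drawn with matplotlib 3.10.9 in Python 3.11.15. In each comparison, library values are given for up to 4 called members per direction with the largest change (2 for interactions and tissues) and for the array and dispersed member with the smallest p, and from each list up to 3 called genes with the smallest p are named; other members were chosen after their values were seen. Members and lists were chosen with earlier results of these data known. Alternatives were median-of-ratios scaling, other filters and pseudocounts, a minimum change, a replicate block, the compared groups alone and leaving out each library.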

Additional observations from a re-analysis of the deposited data

Results flagged for a closer look

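The tcx5/6 difference was not the same with and without ddm1, by a test of the interaction in seedlings, for CRK4 (log2 -2.32) and CRK17 (1.12). Kind of library and clock state cannot be told apart from ddm1 in this interaction. The tcx5/6 difference also differed between SAM and leaf, by a test of the interaction of genotype with tissue, for 19 members. Values are SAM minus leaf. Among array members it was more positive in SAM for CRK6 (0.68), CRK7 (1.71), CRK10 (0.47), CRK11 (0.23), CRK14 (0.56), CRK15 (0.67), CRK19 (1.18) and CRK24 (1.50), and more negative for CRK9 (-0.56) and CRK21 (-1.14). Among dispersed members it was more positive in SAM for CRK2 (0.61), CRK3 (1.05), CRK4 (1.37), CRK29 (0.67), CRK34 (0.93), CRK36 (0.65), CRK37 (1.04) and CRK41 (0.80), and more negative for CRK28 (-0.58). For CRK2, CRK3, CRK10 and CRK19 the tcx5/6 difference was called in both tissues and in opposite directions. For CRK28 it was called in leaf and not in SAM.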

How the results depend on the processing

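No called member changed direction in 3830 checks of 241 called member results, and 256 of the checks ended a call. Direction could change only with other scaling or pseudocounts, or when a library of the compared groups was left out. The other filters, the minimum change, the replicate block, the compared groups alone and leaving out another library kept the log2 change as it was. Counts of members called stayed within 1.5 times except as follows. With a minimum absolute log2 change of 1, calls numbered 0 for tcx5/6 ddm1 with ddm1, 6 for tcx5/6 in leaf, 14 for tcx5/6 in SAM and 7 for the interaction with tissue. For tcx5/6 ddm1 with ddm1 there were 8 with a filter at 20, 9 with the replicate block and 0 with the compared groups alone, where 5 were called. The replicate numbers paired no samples (correlations of replicate differences between groups ran from -0.081 to 0.103), and with the block no other count moved past 1.5 times. Leaving out each library gave 0 to 4 calls for tcx5/6 with WT seedlings, 3 to 6 for tcx5/6 ddm1 with ddm1 and 1 to 4 for the interaction with ddm1. A lone library left in a group was taken to vary like the others.

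With clustered members defined by another CRK within 20 kb, the difference of median log2 change (clustered minus single) was 0.17 in ddm1, 0.96 in tcx5/6 ddm1 with tcx5/6, 0.19 in the interaction with ddm1, 0.41 in tcx5/6 leaf, 0.09 in tcx5/6 SAM and -0.06 between WT SAM and leaf. Without division by length, the array held 65.9%, 63.7%, 54.6% and 60.4% of family signal in tcx5/6 ddm1, ddm1, tcx5/6 and WT seedlings, 58.5% and 57.8% in tcx5/6 and WT SAM and 63.2% and 61.6% in tcx5/6 and WT leaf. The cause of these shifts was not tested. Depth behind the adjusted signal is unknown, so precision rests on 2 libraries per group.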
